A study of Mus musculus with 42 samples.

Results

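*Tug1* is a long noncoding RNA gene, *LacZ* is the bacterial reporter that stands in its place in the knockout allele, and *Morc2a* is the protein-coding gene that starts next to *Tug1* and runs the other way. They are 3 of the 26653 genes of the deposited expression table and were taken by name, not for their levels. The table pairs wild-type and homozygous knockout (*Tug1*-/-) males of the Tug1_tm1.1Vlcg strain, on a C57BL/6J background (N3, with the neomycin cassette removed). The wild-type mice carry both normal *Tug1* alleles and no *LacZ*. In the *Tug1*-/- mice *LacZ* replaces the *Tug1* gene body on both alleles, while the *Tug1* promoter and first exon were left in place. Testes had 4 wild-type and 3 *Tug1*-/- samples, prostate 3 and 2, and heart, eyes, spleen and liver 3 of each, as did embryonic fibroblasts (MEFs), 42 samples in all (22 wild-type and 20 *Tug1*-/-). The MEFs are connective tissue cells grown from E14.5 littermate embryos and were used at passage 2. Ages of the mice that gave the other tissues are not given in the sources used here. The table also holds an 8th tissue, adult brain, from an existing dataset that the study re-analysed. No brain sample is listed, so the number, age and background of the mice behind its values are not given here.

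*Tug1* is transcribed in many tissues, is conserved between mouse and human, and is known for its requirement in male fertility and for reported roles in chromatin regulation. *LacZ* encodes beta-galactosidase. Placed behind a gene's own promoter, it reports where that promoter is active. *Morc2a* belongs to the MORC family of ATPases, which compact chromatin. The MORC2 protein works with the human silencing hub (HUSH) complex to silence integrated elements and some genes. Genes that start head to head, as *Tug1* and *Morc2a* do, commonly share a promoter region, and transcription then leaves it in both directions.

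On chromosome 11 of mm10, the build named in the submitters' processing notes, the table places *Tug1* (ENSMUSG00000056579.11) from 3639785 to 3649042 on the minus strand. It places *Morc2a* (ENSMUSG00000034543.8) from 3649494 to 3690477 on the plus strand. In these intervals the genes do not overlap, and 451 bases lie between them. In a later annotation of the same build, GENCODE vM21, *Tug1* starts at 3649673 on the minus strand and *Morc2a* at 3649191 on the plus strand. The genes share 483 bases there. Of the 8 *Tug1* transcripts there, 1, *Tug1*-205, reaches into *Morc2a*. The libraries were made with the TruSeq RNA kit, which in its standard form loses strand information, so reads from the region between the starts cannot be assigned to a gene by strand. *LacZ* (Velocigene_LacZ) is listed on a separate sequence of 3075 bases. No other gene of the table overlaps *Tug1* or *Morc2a*.

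The sequences at the paired starts are shown because they hold the RefSeq starts of *Tug1* and *Morc2a*. They are part of the region left in place in the *Tug1*-/- allele. Both are RefSeq windows of GRCm38.p6, 300 bases each, with 250 bases before the start and 50 from the start on, written 5′ to 3′ on the strand of the gene. The *Tug1* window is chr11:3648765-3649064 (minus strand) and the *Morc2a* window is chr11:3649187-3649486 (plus strand). The capitals mark matches to motif letters.
Tug1: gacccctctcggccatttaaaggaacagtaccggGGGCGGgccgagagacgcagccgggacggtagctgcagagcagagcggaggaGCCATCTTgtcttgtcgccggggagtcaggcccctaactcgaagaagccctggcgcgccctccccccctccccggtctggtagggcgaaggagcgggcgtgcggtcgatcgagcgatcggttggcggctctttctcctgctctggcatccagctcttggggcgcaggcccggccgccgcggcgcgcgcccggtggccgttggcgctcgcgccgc
Morc2a: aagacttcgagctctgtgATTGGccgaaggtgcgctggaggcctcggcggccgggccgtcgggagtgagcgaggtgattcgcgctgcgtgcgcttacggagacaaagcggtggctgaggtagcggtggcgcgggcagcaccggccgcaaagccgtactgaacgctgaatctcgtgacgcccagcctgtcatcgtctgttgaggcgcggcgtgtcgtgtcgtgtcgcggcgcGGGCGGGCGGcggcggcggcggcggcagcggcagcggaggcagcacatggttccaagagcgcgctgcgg

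The start sites used for these windows are 623 bases apart, and 122 bases lie between the windows. The start site of the *Morc2a* window, 3649437, lies inside the RefSeq *Morc2a* gene, which starts at 3649189. Most of that window's 250 bases before the start are therefore within the gene. Both windows are rich in G and C. The *Tug1* window holds 71.3% G and C and 37 CpG, more CpG than 94.4% of the 32851 mouse promoter windows of the same length. The *Morc2a* window holds 70.3% and 46 CpG, more than 98.4% of them. The median window holds 52.7% G and C and 7 CpG. The motifs searched on both strands were the GC box (GGGCGG), the CCAAT box (CCAAT), the TATA box (TATAAA), the E-box (CACGTG), the cyclic AMP response element (TGACGTCA), the ETS site (CCGGAAG), the NRF1 half-site (TGCGCA) and the YY1 core (AAGATGGC). The *Tug1* window holds 1 GC box, at bases 35 to 40, and 1 YY1 core on the opposite strand, at bases 87 to 94. The *Morc2a* window holds 2 GC boxes, at bases 232 to 237 and 236 to 241, which overlap each other, and 1 CCAAT box on the opposite strand, at bases 19 to 23. Of all windows, 35.7% hold a GC box, 37.4% a CCAAT box and 2.75% a YY1 core. The other motif letters are in neither window, against 13.6% of all windows for the TATA box, 7.15% for the E-box, 1.79% for the cyclic AMP response element, 8.86% for the ETS site and 7.76% for the NRF1 half-site. A match describes the letters and does not show binding.

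**Figure D1:**
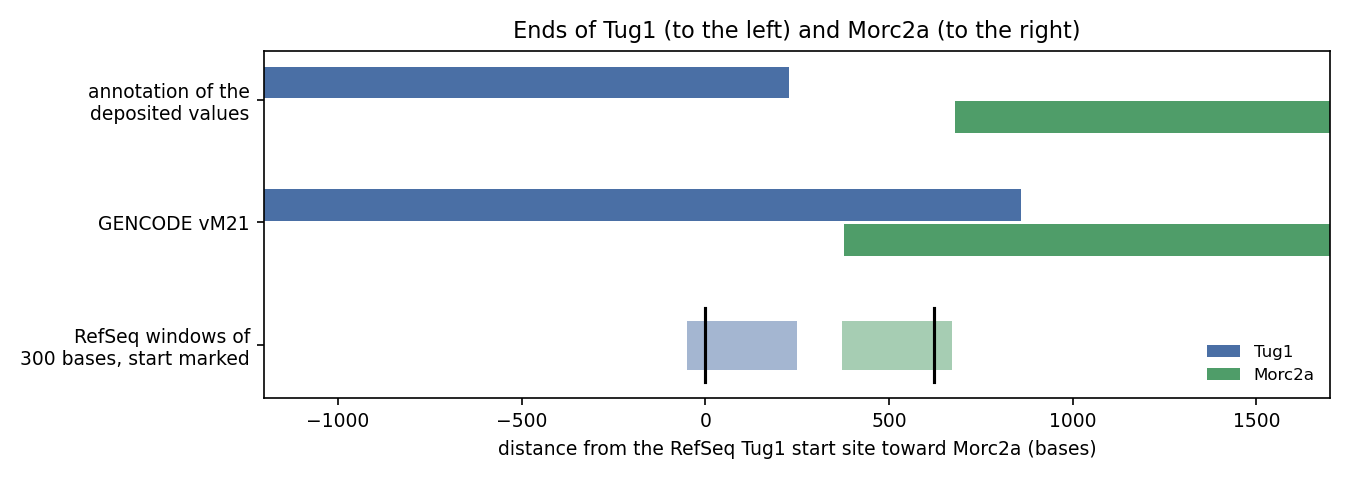
Positions of *Tug1* (blue) and *Morc2a* (green) around their starts, as distance in bases from the RefSeq *Tug1* start site. The upper row shows the intervals of the deposited table, with 451 bases between the genes, and the middle row GENCODE vM21, where they share 483 bases. The lower row shows the RefSeq windows, with vertical lines at the start sites used for the windows, 623 bases apart.

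Expression is given in FPKM, fragments scaled by transcript length and by library size, as 1 deposited value per genotype and tissue that pools the samples. FPKM is scaled by length, so the 3 genes are set beside each other, but their annotated lengths and read assignment were not checked. Ratios between the genes use the values as deposited and are approximate. There is no value per sample and no count, so the depth is unknown, no spread between mice can be given, and no difference here was tested. The order of tissues whose values are close cannot be told from replicate error. In tissue RNA, fewer cells of a type and less RNA per cell cannot be told apart. A change is log2((knockout + 0.1)/(wild type + 0.1)), which understates the changes of low values, and a gene is called lower or higher when its values with 0.1 added differ by more than 1.5 times, a log2 change past 0.58.

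Of 32 marker genes for the labelled tissues, 30 had their highest wild-type FPKM in the tissue they mark. *Pbsn*, an androgen-driven prostate gene, was at 25020 FPKM in prostate, and *Prm1*, a sperm chromatin protein, at 9265 FPKM in testes. The exceptions were *Alb* in liver and *Tgm4* in prostate, which are listed at 0 with a status of too little data, so an exact 0 in the table can be a failed estimate. The status of *Tug1*, *LacZ* and *Morc2a* was OK in all 8 tissues. The FPKM of a genotype and tissue sum to between 315645 in wild-type brain and 1124495 in wild-type liver, and in wild-type brain *Gapdh* was listed at 10.7 FPKM and *Ppia* at 3.76 FPKM, against at least 79.5 and 337 FPKM in the other tissues. Orders and spans of levels across tissues are therefore also given after rescaling each genotype and tissue to the same total.

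*Tug1* was present at a moderate level in every wild-type tissue and was nearly gone in every *Tug1*-/- tissue. Its wild-type level was 27.7 FPKM in testes, 22.7 in spleen, 20.9 in MEFs, 20.1 in brain, 19.2 in prostate, 18.4 in eyes, 12.7 in liver and 11.2 in heart. The highest level, in testes, was 2.47 times the lowest, in heart, and the 4 tissues from MEFs to eyes lay close together. In each tissue *Tug1* stood above between 50.7% (liver) and 75.8% (eyes) of the genes with at least 1 FPKM. After rescaling, the order changed for every tissue. Brain was then highest and liver lowest, and the highest value was 5.65 times the lowest. What the rescaling left in place was the low end, since liver and heart stayed the lowest pair.

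In *Tug1*-/- tissues, the *Tug1* signal was 0.402 FPKM in testes, 0.183 in eyes, 0.124 in heart, 0.121 in MEFs, 0.101 in prostate, 0.0591 in brain, 0.0174 in spleen and 0.00753 in liver. Every knockout value lay below every wild-type value, in a design that deletes the gene body. The share of all genes without such overlap was not computed. The signal left was 1.45% of the wild-type value in testes, 1.10% in heart, 0.995% in eyes, 0.577% in MEFs, 0.528% in prostate, 0.294% in brain, 0.0767% in spleen and 0.0594% in liver. The tissues thus differed far more in what was left of *Tug1*, with a highest knockout value 53.4 times the lowest (79.2 times after rescaling), than in its wild-type level. All the knockout values were at most 0.402 FPKM, at unknown depth, so this span rests on values near 0. The first exon left in place lies in the *Tug1* interval, so the signal left can include reads from it, and their share was not tested. With 0.1 added, which sets much of the order, the log2 change was strongest in spleen (-7.60), brain (-6.99) and liver (-6.89), followed by prostate (-6.58) and MEFs (-6.57), and weakest in eyes (-6.03), testes (-5.79) and heart (-5.66).

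*Tug1* was called lower in 8 of 8 tissues. Of all genes with at least 1 FPKM in either genotype, 0.961% were called lower in testes, 0.948% in eyes, 0.793% in prostate and 0.535% in brain, and 2.5% in MEFs, 2.47% in liver, 1.76% in heart and 1.27% in spleen. *Tug1* passed this floor through its wild-type values alone. Ranked from the strongest decrease among those genes, *Tug1* was 1st of 11727 in MEFs, 2nd of 15400 in testes, and 3rd in prostate (of 12359), eyes (of 14453) and brain (of 13275). It was 4th of 12785 in spleen, 8th of 11875 in liver and 10th of 12864 in heart, so the deleted gene itself was among the 10 strongest decreases of each tissue.

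**Figure D2:**
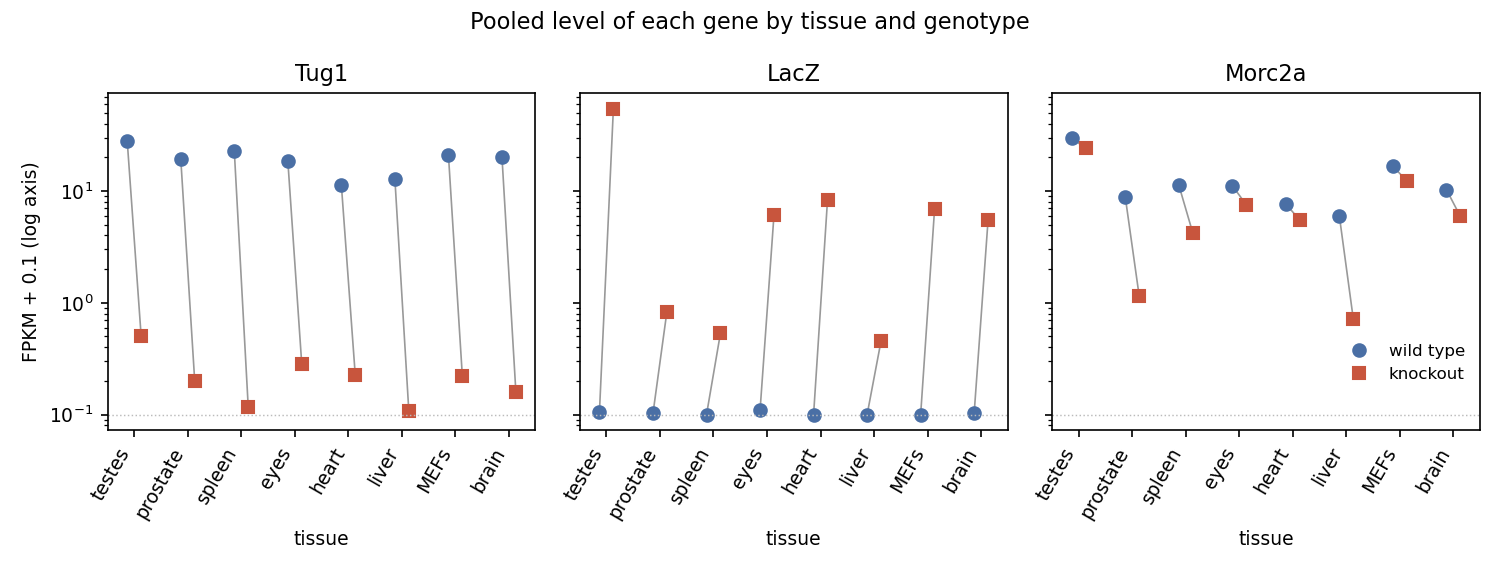
Pooled FPKM plus 0.1 (log axis) of *Tug1*, *LacZ* and *Morc2a* in 8 tissues. Circles are wild type, squares *Tug1*-/-, with 1 pooled value each and no error bars because no value per sample was used, and the dotted line marks a value of 0. *Tug1* lies at or below 0.402 FPKM in every *Tug1*-/- tissue, *LacZ* between 0.355 and 54.3 FPKM there, and the gap between genotypes of *Morc2a* is widest in liver and prostate.

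*LacZ* was essentially absent from the wild-type values and present in every *Tug1*-/- tissue, at levels that differed widely. Its wild-type value was 0.00894 FPKM in eyes, 0.00629 in testes, 0.00347 in brain and 0.00258 in prostate, and it is listed at 0 in spleen, heart, liver and MEFs. In *Tug1*-/- tissues it was 54.3 FPKM in testes, 8.18 in heart, 6.77 in MEFs, 5.98 in eyes, 5.44 in brain, 0.734 in prostate, 0.434 in spleen and 0.355 in liver. The knockout and wild-type values of *LacZ* did not overlap, in a design where wild-type mice carry no *LacZ*. The share of all genes without such overlap was not computed. Where *LacZ* was above 0 in wild type, that value was at most 0.352% of the knockout value of the same tissue (prostate).

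The 8 tissues fell into 3 levels of *LacZ*. Testes stood alone at the top, heart, MEFs, eyes and brain lay between 5.44 and 8.18 FPKM, and prostate, spleen and liver lay under 1 FPKM. The highest value was 153 times the lowest, and without testes still 23.1 times. After rescaling, the same 3 tissues were lowest, in the same order, testes was highest, and the 4 in between were ordered brain, eyes, MEFs and heart, from 17.1 down to 12.7. *LacZ* in *Tug1*-/- testes stood above 83.0% of the genes with at least 1 FPKM there, and in heart, eyes, MEFs and brain above between 32.2% and 45.4% of them.

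*LacZ* was called higher in 8 of 8 tissues, of which 4 have a wild-type value listed at 0, so that no fold is given there. The share of genes with at least 1 FPKM that was called higher was 5.15% in spleen, 2.8% in liver, 2.79% in eyes and 2.76% in prostate, and 0.407% in brain, 0.925% in heart, 1.15% in MEFs and 1.36% in testes. *LacZ* itself reached 1 FPKM in 5 of the tissues, all but prostate, spleen and liver, and in these 5 only through its *Tug1*-/- value. With 1 added in place of 0.1, it was called higher in 6 of 8, since spleen and liver no longer passed.

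The *LacZ* level in *Tug1*-/- tissues was a very different share of the wild-type *Tug1* level from tissue to tissue. *LacZ* reached 196% of the wild-type *Tug1* level in testes, 73.0% in heart, 32.4% in eyes, 32.3% in MEFs, 27.0% in brain, 3.82% in prostate, 2.80% in liver and 1.91% in spleen. Spleen had the 2nd highest wild-type *Tug1* and the 2nd lowest *LacZ*, which held after rescaling for *LacZ*, while its *Tug1* was then 3rd highest. Heart had the lowest wild-type *Tug1* and the 2nd highest *LacZ*, but after rescaling the 2nd lowest *Tug1* and the 5th highest *LacZ*. Over the 8 tissues, Spearman's rho between *LacZ* in *Tug1*-/- and *Tug1* in wild type was 0.19, 0.55 after rescaling, and -0.21 without testes. These correlations are a description of 8 tissues, each with pooled values.

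*Morc2a* was lower in the *Tug1*-/- value of all 8 tissues, from a loss of most of its signal in liver and prostate to a small difference in testes. Its wild-type level was 29.8 FPKM in testes, 16.5 in MEFs, 11.3 in spleen, 11.1 in eyes, 10.2 in brain, 8.80 in prostate, 7.54 in heart and 5.89 in liver. In *Tug1*-/- tissues it was 23.9 FPKM in testes, 12.2 in MEFs, 7.45 in eyes, 5.83 in brain, 5.41 in heart, 4.15 in spleen, 1.06 in prostate and 0.621 in liver. Wild-type and knockout values of different tissues overlapped, so the difference is one within each tissue. The highest level was 5.06 times the lowest in wild type and 38.5 times the lowest in *Tug1*-/-, and 7.80 and 57.1 times after rescaling, with testes highest and liver lowest in each.

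The share of *Morc2a* kept in *Tug1*-/- was 80.4% of wild type in testes, 73.9% in MEFs, 71.8% in heart, 67.2% in eyes, 57.2% in brain, 36.9% in spleen, 12.1% in prostate and 10.6% in liver. The log2 change was strongest in liver (-3.05), prostate (-2.94) and spleen (-1.42), followed by brain (-0.80), and weakest in eyes (-0.57), heart (-0.47), MEFs (-0.43) and testes (-0.31). *Morc2a* was thus called lower in 4 of 8 tissues, prostate, spleen, liver and brain, against the 0.793%, 1.27%, 2.47% and 0.535% of genes called lower there. The tissues nearest the limit were brain, called at -0.80, and eyes, not called at -0.57. When the values were rescaled to the same total, eyes passed too (-0.60), giving 5 of 8, and with a limit of 2 times 3 tissues passed.

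Among the genes with at least 1 FPKM in either genotype, *Morc2a* had the 8th strongest decrease in prostate, the 9th in liver, the 18th in spleen and the 42nd in brain. In liver it passed this floor through its wild-type value alone (5.89 FPKM, against 0.621 in knockout). In the other tissues it ranked 146th in eyes, 366th in heart, 564th in MEFs and 790th in testes. In FPKM the loss was 7.74 in prostate, 7.11 in spleen, 5.84 in testes, 5.27 in liver, 4.36 in brain, 4.32 in MEFs, 3.63 in eyes and 2.13 in heart. After rescaling, the loss was 15.1 in spleen, 14.0 in brain, 12.7 in prostate, 10.0 in eyes, 7.47 in MEFs, 5.65 in testes, 4.62 in liver and 3.96 in heart, so the order of tissues by loss depends on the scaling, with brain moving from 5th to 2nd. Set against the wild-type *Tug1* level of the tissue, the loss in brain was 0.217, close to the 0.190 to 0.211 of heart, eyes, MEFs and testes, and below the 0.314, 0.403 and 0.416 of spleen, prostate and liver.

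**Figure D3:**
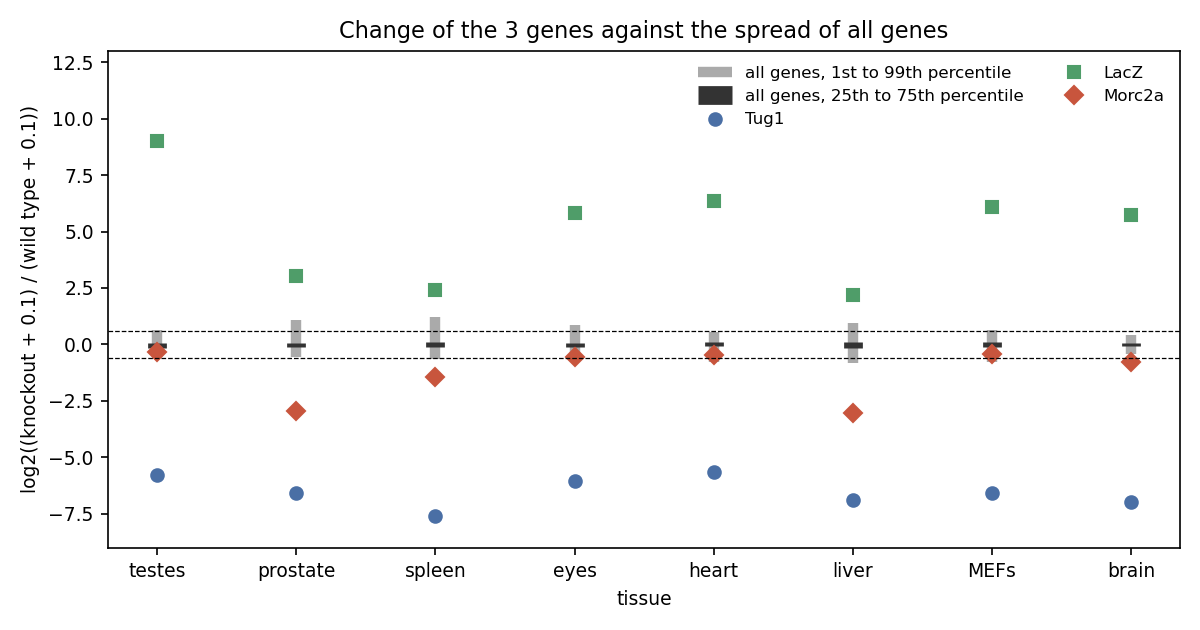
Log2 change from wild type to *Tug1*-/- of *Tug1*, *LacZ* and *Morc2a* in 8 tissues, over the spread of all genes with at least 1 FPKM (grey, 1st to 99th percentile; black, 25th to 75th percentile). Dashed lines mark a change of 1.5 times. *Tug1* lies at -5.66 or lower and *LacZ* lies above the grey bar in every tissue. The height of *LacZ* rests on the added 0.1 in all 8 tissues, since its wild-type value is at most 0.00894 FPKM. *Morc2a* lies outside the grey bars in prostate, spleen, liver and brain.

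Prostate, spleen and liver, the 3 tissues with *LacZ* under 1 FPKM, were the 3 that kept the smallest share of *Morc2a*, and testes was highest for *LacZ*, for the share of *Morc2a* kept and for the share of *Tug1* signal left. The same 3 tissues were lowest and testes highest for *LacZ* after rescaling. Spearman's rho between *LacZ* and the share of *Morc2a* kept was 0.95 over 8 tissues and 0.93 over the 7 with listed samples, and 0.76 after rescaling. Between *LacZ* and the share of *Tug1* signal left it was 0.95 over 8 tissues and 0.96 over 7, and 0.69 after rescaling, while between the shares of *Tug1* left and *Morc2a* kept it was 0.86 over 8 with either scaling. Without testes these values, as deposited, were 0.93, 0.93 and 0.79. The tissues lie in separate groups rather than along a line, the measures share the same *Tug1*-/- samples, and no test can be given. The *Tug1* signal left is low in every tissue and can include reads from the first exon left in the allele. The lower values after rescaling come with the new order of *LacZ* among heart, MEFs, eyes and brain.

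In wild type, *Tug1* and *Morc2a* also had a similar order. The rho between their wild-type levels was 0.88 over 8 tissues, and 0.62 after rescaling. The *Morc2a* level was 1.07 times that of *Tug1* in testes, 0.790 in MEFs, 0.672 in heart, 0.601 in eyes, 0.507 in brain, 0.497 in spleen, 0.465 in liver and 0.458 in prostate. Testes was the only tissue of the 8 where *Morc2a* exceeded *Tug1*. The 3 tissues with the lowest ratio in wild type, prostate, liver and spleen, were also those that kept the smallest share of *Morc2a* in *Tug1*-/-, although brain lay only just above them. In *Tug1*-/- tissues the *LacZ* level was 2.27 times that of *Morc2a* in testes, 1.51 in heart, 0.933 in brain, 0.804 in eyes, 0.692 in prostate, 0.571 in liver, 0.554 in MEFs and 0.104 in spleen. On that scale spleen stood apart, with far less *LacZ* beside *Morc2a* than prostate or liver.

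**Figure D4:**
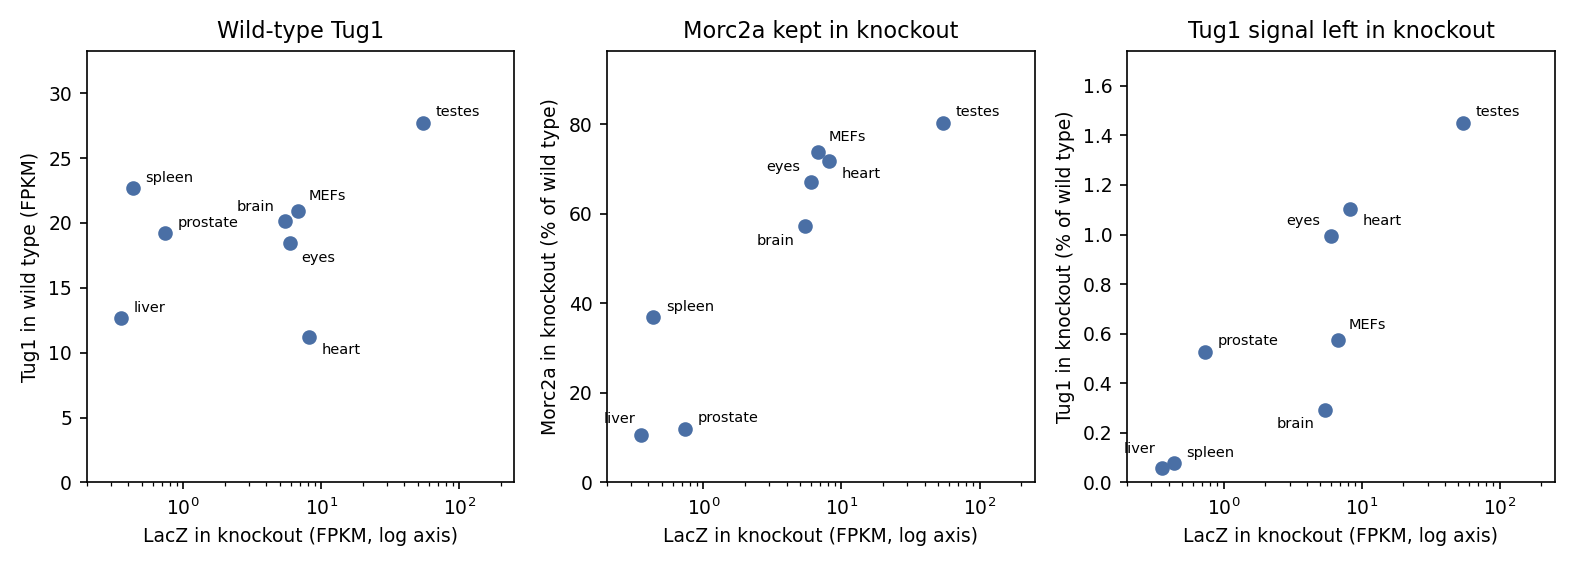
*LacZ* FPKM in *Tug1*-/- (x, log axis) against wild-type *Tug1* in FPKM (left), *Morc2a* in *Tug1*-/- as a percentage of wild type (middle) and the *Tug1* signal left in *Tug1*-/- as a percentage of wild type (right), with 1 point per tissue from pooled values. Spearman's rho is 0.19 on the left, 0.95 in the middle and 0.95 on the right for the values as deposited, and 0.55, 0.76 and 0.69 after rescaling.

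The genes whose level followed each of the 3 most closely over the 8 tissues were taken by Pearson's r of log2(FPKM + 0.1). For wild-type *Tug1*, among 20096 genes, they were *BC026590* (r = 0.97), *Gm20204* (0.97), *Trmt44* (0.96), *Ighmbp2* (0.96) and *Fhdc1* (0.96). *Morc2a* ranked 136th, with an r of 0.83, so other genes stood closer to *Tug1* than its head-to-head neighbor did on this measure. For wild-type *Morc2a* they included *Prdm4* (0.99), *Edc4* (0.98), *Csnk1g1* (0.98) and *4933407K13Rik* (0.97), and *Tug1* ranked 783rd. *Edc4* encodes a scaffold of mRNA decapping. For *LacZ* in *Tug1*-/- tissues, among 20065 genes, they were *Prkg1* (0.97), *4931428F04Rik* (0.97), *Trim13* (0.95), *Cdsn* (0.95) and *Zfp428* (0.95), with *Morc2a* 102nd at 0.87. With 8 points and a level in testes far above the rest for *Morc2a* and *LacZ*, few points set these lists. By Spearman's rho 0 of the 5 stayed among the top 5 for *Tug1*, 0 for *Morc2a* and 1, *Trim13*, for *LacZ*.

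The partners of MORC2 and the other MORC genes stayed within the limit in every tissue where they reached 1 FPKM. Of 10 symbols listed, 9 were found as genes of the table, with *Fam208a*, a core HUSH subunit now named *Tasor*, found by its identifier as *D14Abb1e*. In 57 values with at least 1 FPKM, 0 were called lower and 0 higher, and the median log2 change was 0.02. Between 0.942% (brain) and 6.43% (spleen) of all genes were called in either direction, so a count of 0 is near that share and says little about these genes. Their range ran from -0.52, for *Morc4* in liver, to 0.31, for *Mphosph8* in liver. In liver, where *Morc2a* was lowest, *Mphosph8*, the HUSH subunit that reads histone H3 lysine 9 methylation, had 8.05 FPKM (wild type) and 9.99 FPKM (knockout). *Setdb1*, the histone methyltransferase recruited by HUSH, was 9.59 and 9.60 FPKM there. In testes *Morc2b*, a close relative of *Morc2a*, had 108 FPKM (wild type) and 113 FPKM (knockout), and it stayed under 1 FPKM in the other 7 tissues.

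*Nrf1*, *Trp53*, *Ppargc1a*, *Sin3a* and *Rcor1* were listed as genes linked to *Tug1*. The study cites *Ppargc1a* as a gene whose mRNA *Tug1* RNA can regulate in cultured podocytes. Of 36 values of these genes with at least 1 FPKM, 0 were called in either direction, and the changes ran from -0.20 to 0.42. That count can be read only against the same low share of all genes. Under 1 FPKM, *Ppargc1a* in spleen was past the limit (-0.75, from 0.612 to 0.323 FPKM). *Trp53*, which encodes the p53 transcription factor, went from 57.3 to 76.7 FPKM in MEFs, a log2 change of 0.42, and was 14.0 and 13.2 FPKM in liver. The 12 reference genes gave 96 values between -0.48 and 0.48, with 0 called. This count too is near the share of all genes called in either direction, 0.942% (brain) to 6.43% (spleen), and says little about them. The median change of all genes with at least 1 FPKM lay between -0.06 (testes) and 0.03 (heart).

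The value of *Rnf185*, a ubiquitin ligase gene that the study places downstream of the *Tug1* start, differed in the opposite direction to *Morc2a*. *Rnf185* was called higher in 8 of 8 tissues, against between 0.407% (brain) and 5.15% (spleen) of all genes with at least 1 FPKM. Its log2 change ran from 0.75 in testes to 1.03 in heart, a range much narrower than that of *Morc2a*. Its order did not match that of *Morc2a*, since heart and liver had nearly the same change of *Rnf185* (1.03 and 1.01) and changes of *Morc2a* of -0.47 and -3.05.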

How the data were processed

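RNA from wild-type and *Tug1*-/- tissues had been sequenced as polyA libraries made with the TruSeq RNA Sample Preparation Kit v2. Per the labels, the authors used CASAVA 1.8.2, TopHat2, Cuffdiff and the mm10 build. The deposited table gives 1 FPKM value per genotype and tissue, pooled over samples by the authors, for 26653 genes in 8 tissues. Further columns hold the authors' own comparisons (log2 fold change, test statistic, p-value and q-value) and were not used. No column holds values per sample, so depth is unknown and no error, test or fit with a sample left out could be made.

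Changes were computed as log2((knockout + 0.1)/(wild type + 0.1)) with a limit of 1.5 times, and shares of all genes called over genes with at least 1 FPKM in either genotype. Likeness between genes was Pearson's r of log2(FPKM + 0.1) over 8 tissues, and the 5 highest were named, except 1 that is not reported here. The named genes were otherwise the 3 genes themselves, fixed lists (partners of MORC2, genes linked to *Tug1*, reference genes, neighbors and tissue markers) and genes overlapping them. The genes and lists were chosen with earlier results of these data known. Of the neighbors listed, *Selm*, *Smtn* and *Osbp2* are given in the closing section. Positions were compared with GENCODE vM21, and promoter windows came from RefSeq (GRCm38.p6), matched by symbol for 2 of the 3 genes. A second *Morc2a* window, further inside the gene, was not shown. The alternatives were pseudocounts of 1 and 0.01, rescaling to the same total or by the median ratio, a limit of 2 times, the 7 tissues with listed samples, other expression floors and Spearman's rho. Only the calculations of change and likeness were tested on simulated data, with planted changes and a planted profile and no added noise. The scripts ran under Python 3.11.15, with the packages numpy 2.4.6 and pandas 2.3.3 for tables, scipy 1.17.1 for rank correlations, and for plots matplotlib 3.10.9.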

Additional observations from a re-analysis of the deposited data

How the results depend on the processing

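*Tug1* was called lower in every tissue tried under all 6 alternatives (8 of 8, or 7 of 7 with listed samples). *Morc2a* was called lower in 3 to 5 tissues and *LacZ* higher in 6 to 8, and no change of *Tug1*, *LacZ* or *Morc2a* turned its sign. Of 96 recomputed changes of these genes, 32 moved by more than 1.5 times, all of them with another pseudocount. The change of *Tug1* in liver was -3.76 with a pseudocount of 1 and -9.50 with 0.01, with liver 7th and 2nd in the order of tissues, and that of *LacZ* in prostate 0.79 and 5.89, so these values rest on the pseudocount. The shares of genes called rose with genes of any value above 0, to 2.27% lower in testes, and shrank with genes of at least 5 FPKM, to 0.342%. After rescaling, 0 of 8 tissues kept their place in the order of wild-type *Tug1*, 4 in that of *LacZ* and 6 each in those of *Morc2a* in wild type and in *Tug1*-/-. Spearman's rho between *LacZ* in *Tug1*-/- and *Tug1* in wild type turned from 0.19 to -0.21 without testes. That alternative was chosen after seeing the data, as were the rescaled correlations and those over the 7 tissues with listed samples. Rescaling moved the changes of all genes in liver by 0.16 and in testes by 0.10 (log2). Of the 5 genes most like each gene, 2 for *Tug1*, 3 for *Morc2a* and 4 for *LacZ* stayed among the top 5 after rescaling, and 3 for each over the 7 tissues with listed samples. No paired analysis was possible because the table holds pooled values only, and for the same reason no sample could be left out.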

Other observations

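The other neighbors on the list differed by tissue. *Selm*, a selenoprotein gene, had log2 changes from 0.57 in spleen to 1.13 in brain. *Smtn*, a smooth muscle cytoskeleton gene, changed by 2.13 in testes, from 2.64 to 11.9 FPKM, and by -0.22 in spleen. *Osbp2*, an oxysterol-binding protein gene, changed by -2.41 in heart, from 9.68 to 1.74 FPKM, and by 1.32 in prostate.

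Expression of *Gapdh* and *Ppia* in the brain values stood apart from the other tissues in both genotypes. In wild type and *Tug1*-/-, *Gapdh* was 10.7 and 11.3 FPKM, and *Ppia* 3.76 and 4.10 FPKM, against at least 79.5 and 337 FPKM in the other wild-type tissues, while *Actb* was 208 and 213 FPKM and *Hprt* 109 and 112 FPKM. The brain markers *Snap25* and *Mbp* were high there, at 1203 and 1509 FPKM in wild type. The cause was not tested. The brain changes of *Tug1*, *LacZ* and *Morc2a* compare genotypes within that tissue.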
